A study of Arabidopsis thaliana with 60 samples.

Results

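Arabidopsis plants with 3 chromosome sets were compared with plants from like crosses that had 2, to ask whether the genes of known pathways and families differed together with the genome dose. The comparison covered 5 biparental triploid plants (BT) and 5 biparental diploid plants (BD), out of 15 plants sequenced in the series, and the 21450 genes listed for them. Of these genes, 1596 belonged to 42 pathway lists or to 9 lists of tissue markers, drawn up by name from known functions. A further grouping used 155 families of genes that share a symbol, such as WRKY or EXPA, with at least 8 members at a mean normalized count of at least 10.

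Every plant had a diploid ein3-1 mother, a mutant in the ethylene response regulator EIN3. The BT plants came from pollen of a tetraploid donor, and the BD plants from pollen of a diploid donor. The extra set of BT plants was therefore paternal, and alleles of the ein3-1 mother were a smaller share of their genome. Ploidy and the ratio of maternal to paternal sets cannot be told apart in this comparison. Both donors carried pRPS5a::mGAL4-VP16/- and pUAS::BAR-YFP/-, so that a herbicide resistance gene fused to a fluorescent protein was switched on by a synthetic transcription factor under a promoter active in dividing cells. Seedlings of both groups were thus selected on glufosinate, checked for fluorescence and ploidy, and grown in long days. RNA was taken from the aerial tissue of plants 18 days after sowing, with 4 technical replicates a plant that were already merged into 1 value. The values are counts of reads divided by the authors' size factor for each plant, called normalized counts here.

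An extra chromosome set adds the same dose to every nuclear gene, so a plant whose sets are complete keeps the same ratio between genes even if each cell makes more RNA. Pathways are nonetheless read as groups, because plants adjust them as units. Defence driven by salicylic acid is built up against photosynthesis and growth, the endoplasmic reticulum raises its folding proteins when secretion is high, and plastid genes are run partly from the nucleus and partly from the plastid itself. In bulk tissue, fewer cells of a type and less RNA per cell cannot be told apart, and counts scaled to a library give no absolute amount of RNA.

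The plants stood apart from each other in ways that crossed the groups. Reads assigned to genes numbered 20600915 to 27649421 in BT plants and 19534646 to 30756482 in BD plants. Genes of 3 chromosome regions lay above the level of the other genes in 4 plants. Each raise is the median deviation of a region's genes from their means over the 10 plants, less that of nuclear genes outside the regions. The raised plants count in those means, so a raise over the unraised plants alone is larger. On chromosome 4 the raise was 0.36 on the log2 scale in BT plant 2, against -0.02 to -0.05 in the other plants. On chromosome 5 it was 0.38 in BT plant 5, against -0.03 to -0.05 in the others. On chromosome 1 from AT1G70250 onward it was 0.29 in BT plant 5 and 0.25 in BT plant 3, against 0.42 in BD plant 4, while the other 7 plants had values between -0.11 and -0.16. The genes there with a mean of at least 10 numbered 2869 on chromosome 4, 4364 on chromosome 5 and 872 on distal chromosome 1, which left 10678 of 18783 outside. Each list was therefore also described without its members in these regions.

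The largest axis of variation held 48% of the variance among the 10 plants and did not follow ploidy. Its scores were 12, -27.5, 20.3, -43.4 and 82.5 in BT plants 1 to 5, and 4.75, -54.5, -17.5, 63.8 and -40.6 in BD plants 1 to 5. BT plant 5 and BD plant 4 lay at the same end. BT plant 5 held the highest or the lowest value of all 10 plants in 24 of the 42 lists, so the lists with the largest shifts are given below also without BT plant 5, without BD plant 4 and without both.

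The tissue marker lists were read as a check of the labelled aerial tissue. All 5 leaf mesophyll markers, among them the small subunit of Rubisco and chlorophyll-binding antenna proteins, were abundant, with summed normalized counts of 803434 to 1792178 in BT plants and 1155602 to 2059992 in BD plants. Of the root markers 3 were listed, summing to 47.5 to 155 in BT plants and 63.7 to 109 in BD plants. The 2 seed storage genes listed summed to at most 13.1 in BT plants and 14.3 in BD plants. No listed marker was at 0 in every plant.

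No gene passed the test between BT and BD plants. With limma on log2(normalized count + 1), 0% of 21450 genes passed a Benjamini-Yekutieli adjusted p of 0.05, the smallest adjusted p was 1, and 371 genes had an unadjusted p under 0.05, with 166 of them higher in BT plants and 205 lower. Counts of reads tested with edgeR and DESeq2 in 14 plants also gave 0 genes at the adjusted threshold, with unadjusted calls of 184 higher and 239 lower genes in edgeR and of 163 higher and 204 lower genes in DESeq2. Among the 18783 genes with a mean of at least 10, 0.49% had an unadjusted p under 0.05 and were higher in BT plants, and 0.793% were lower. Where no gene differs, a share of about 0.05 is called at this threshold, both directions together, so these calls were no excess. All 5 BT plants lay above all 5 BD plants in 6 genes or 0.0319%, and below them in 19 genes or 0.101%. A log2 fold change above 0 was found in 49.7% of these genes, and in 39.8% of those outside the 3 regions, which is the background for the counts of members below.

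A list was given 1 value in each plant, the median over its members of the log2 value minus that gene's mean over the 10 plants. The shift of a list is the median log2 fold change over its members, BT over BD, read against a median of -0.00 over all genes and -0.03 over those outside the 3 regions. None of the 42 lists and none of the 155 families had plant values that did not overlap between the groups. In 39 lists the difference between the group means of the plant values was smaller than 1 pooled SD within groups. Over the 1429 distinct genes of these lists, 0.77% had an unadjusted p under 0.05 and were higher in BT plants and 0.42% were lower. The medians lay above the all-gene median in 19 lists and below it in 23, and 39 of the 42 lay on the same side once the 3 regions were left out.

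**Figure D1:**
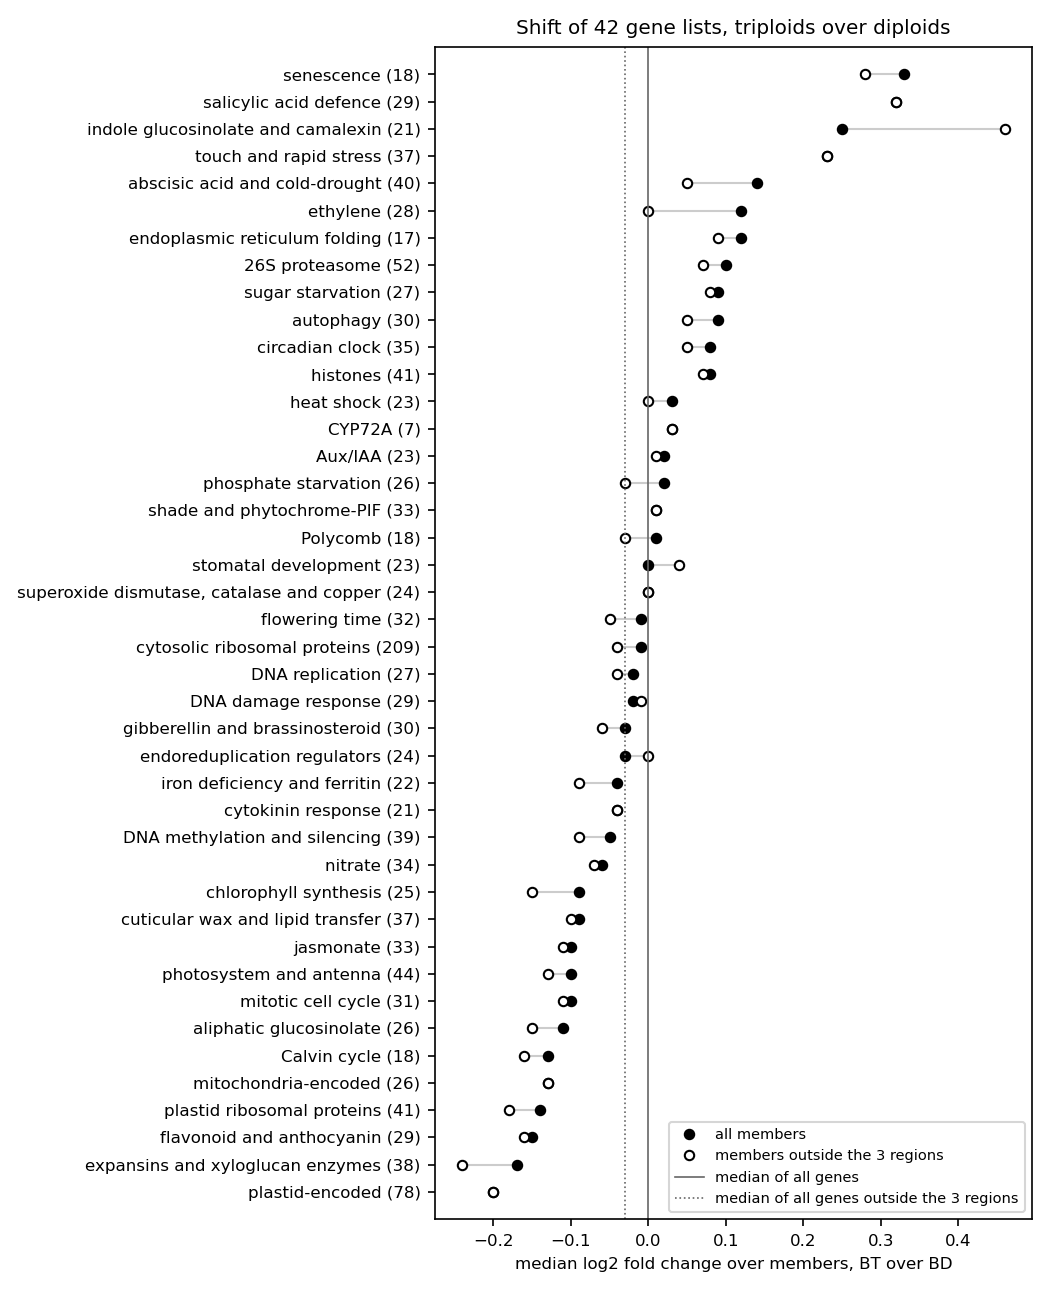
Median log2 fold change, BT over BD, over the members of 42 pathway lists (numbers of members in parentheses), for all members (filled) and for those outside the 3 chromosome regions (open), with lines at the medians of all genes. Senescence lay highest at 0.33 and the plastid-encoded genes lowest at -0.20, and the indole glucosinolate list moved most without the regions, to 0.46.

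The highest medians belonged to lists of defence and stress, but other such lists lay near 0 or below it. Heat shock had a median of 0.03 with 12 of 23 above 0. The superoxide dismutase, catalase and copper list had 0.00 with 12 of 24, and jasmonate -0.10 with 10 of 33. Senescence genes, which dismantle ageing leaves, had a median log2 fold change of 0.33 over 18 members and 0.28 over the 8 outside the regions, although only 11 of 18 lay above 0. Genes of salicylic acid defence, the hormone pathway against pathogens that feed on living tissue, had a median of 0.32 over 29 members and 0.32 over the 14 outside, with 27 of 29 above 0. None of the 47 entries on the senescence and salicylic acid lists had an unadjusted p under 0.05. Among all genes with a mean of at least 10, 0.49% were called higher and 0.793% lower.

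The values of the salicylic acid list spread widely within both groups. They were -0.01, -0.97, 0.85, -0.89 and 1.95 in BT plants 1 to 5, against -0.18, -0.94, 0.04, 1.24 and -0.75 in BD plants 1 to 5. The group means were 0.19 ± 1.23 in BT plants and -0.12 ± 0.86 in BD plants (SD, n = 5 each). Plants at the top and at the bottom of the range were found in both groups. Without BT plant 5 the median log2 fold change of the list was -0.07, with 12 of 29 members above 0, and without BD plant 4 it was 0.57, with 29 of 29 above 0. With both left out it was 0.24, with 25 of 29 above 0, and without the 4 plants that had a raised region it was 0.05.

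The 3 plants with the highest salicylic acid values were BT plant 5, BD plant 4 and BT plant 3, which were also the 3 plants with the raised distal chromosome 1. The lowest values were those of BT plants 2 and 4 and BD plant 2. Whether the raised region had a part in the list value was not tested. The plots of the salicylic acid value show BT plant 5 apart from the rest also on the photosystem list.

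**Figure D2:**
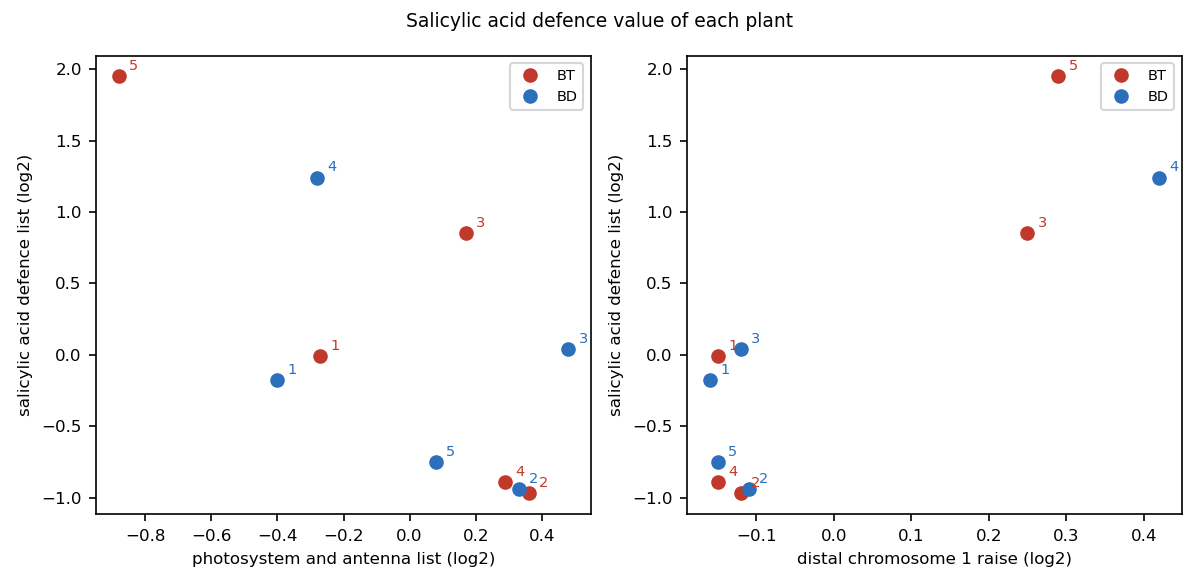
Salicylic acid defence list value of each plant (log2, relative to the mean of the 10 plants) against its photosystem and antenna list value (left) and against the raise of distal chromosome 1 (right, log2). BT plants are red, BD plants blue, and numbers are plants. BT plant 5 had 1.95 on the salicylic acid list and -0.88 on the photosystem list, and the 3 plants with a raised distal chromosome 1 had the 3 highest salicylic acid values.

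In the single members named here BT plant 5 and BD plant 4 had the highest values, while the next plant differed between genes. These genes are among the members that give the list its value. FMO1 encodes the monooxygenase that makes N-hydroxypipecolic acid, the mobile signal of systemic resistance. It had 63, 9.53, 83, 2.93 and 344 normalized counts in BT plants 1 to 5, against 32, 0, 6.58, 209 and 1.25 in BD plants 1 to 5, a log2 fold change of 1.87 ± 1.34 (SE). ALD1, the aminotransferase upstream of FMO1, had 145, 4.77, 115, 8.78 and 447 in BT plants, against 40.1, 5.09, 45, 168 and 5 in BD plants. Both genes were high in BT plants 1, 3 and 5 and in BD plant 4. UGT76B1, a glucosyltransferase that inactivates salicylic acid, had a log2 fold change of 0.69 ± 1.27. DLO1, a salicylic acid hydroxylase, ran the other way at -0.26, and its values spanned 36.1 to 6416 in BT plants and 132 to 1837 in BD plants.

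On the senescence list the plant values were 0.27, -0.41, 0.35, -0.75 and 1.12 in BT plants, against -0.30, -0.84, 0.06, 0.97 and -0.70 in BD plants. BT plant 5 and BD plant 4 were again the highest of their groups. NAP, a NAC transcription factor that promotes leaf senescence, had 232, 78.2, 103, 39 and 346 normalized counts in BT plants, against 54.1, 31.8, 101, 101 and 35 in BD plants, and a log2 fold change of 1.06 ± 0.57. NAC042, a NAC factor known for delaying senescence, had the same log2 fold change of 1.06, with an SE of 0.99. SAG29, a sugar transporter of old leaves, had 782 normalized counts in BD plant 4, while no other BD plant had more than 4.92 and no BT plant more than 18. Without BT plant 5 the median of the list was 0.03, without BD plant 4 it was 0.59, and without both 0.30. Leaving out the 4 plants that had a raised region gave 0.16.

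Indole glucosinolates and camalexin are tryptophan-derived defence compounds. Their 21 genes had a median of 0.25, with 18 above 0, and a median of 0.46 over the 11 outside the regions, with 10 above 0. The plant values were 0.23, 0.11, 0.25, -0.20 and 0.69 in BT plants, against 0.04, -0.40, -0.14, 0.50 and -0.45 in BD plants. In this list 4 of 5 BT plants lay above 0 and 3 of 5 BD plants below it, and the median was 0.15 without BT plant 5, 0.36 without BD plant 4 and 0.26 without both.

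Members of the indole list held 2 of the unadjusted calls, where all genes gave 0.49%. CYP81F2, which adds a hydroxyl group to indole glucosinolates, had 106, 131, 85.8, 54.6 and 82.1 normalized counts in BT plants, against 50.8, 21.6, 38.4, 73.7 and 11.2 in BD plants. Its log2 fold change was 1.41 ± 0.50, with an unadjusted limma p of 0.012 and an adjusted p of 1. IGMT1, a methyltransferase acting after CYP81F2, had a log2 fold change of 0.91 ± 0.41 with an unadjusted limma p of 0.042. In both genes the groups overlapped only in part, and CYP81F2 lies on chromosome 5, while IGMT1 lies outside the regions.

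The camalexin genes varied more between plants. PAD3, which makes camalexin in its last step, had 781, 106, 378, 33.2 and 1082 normalized counts in BT plants, against 454, 3.82, 85.6, 1555 and 20 in BD plants, a log2 fold change of 1.51 ± 1.35. CYP71A13, an earlier step, had a log2 fold change of 1.73 ± 1.62, with 0 counts in BD plant 2 and 856 in BD plant 4. MYB34, an activator of indole glucosinolate genes, ran against the list at -0.22 ± 0.27.

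**Figure D3:**
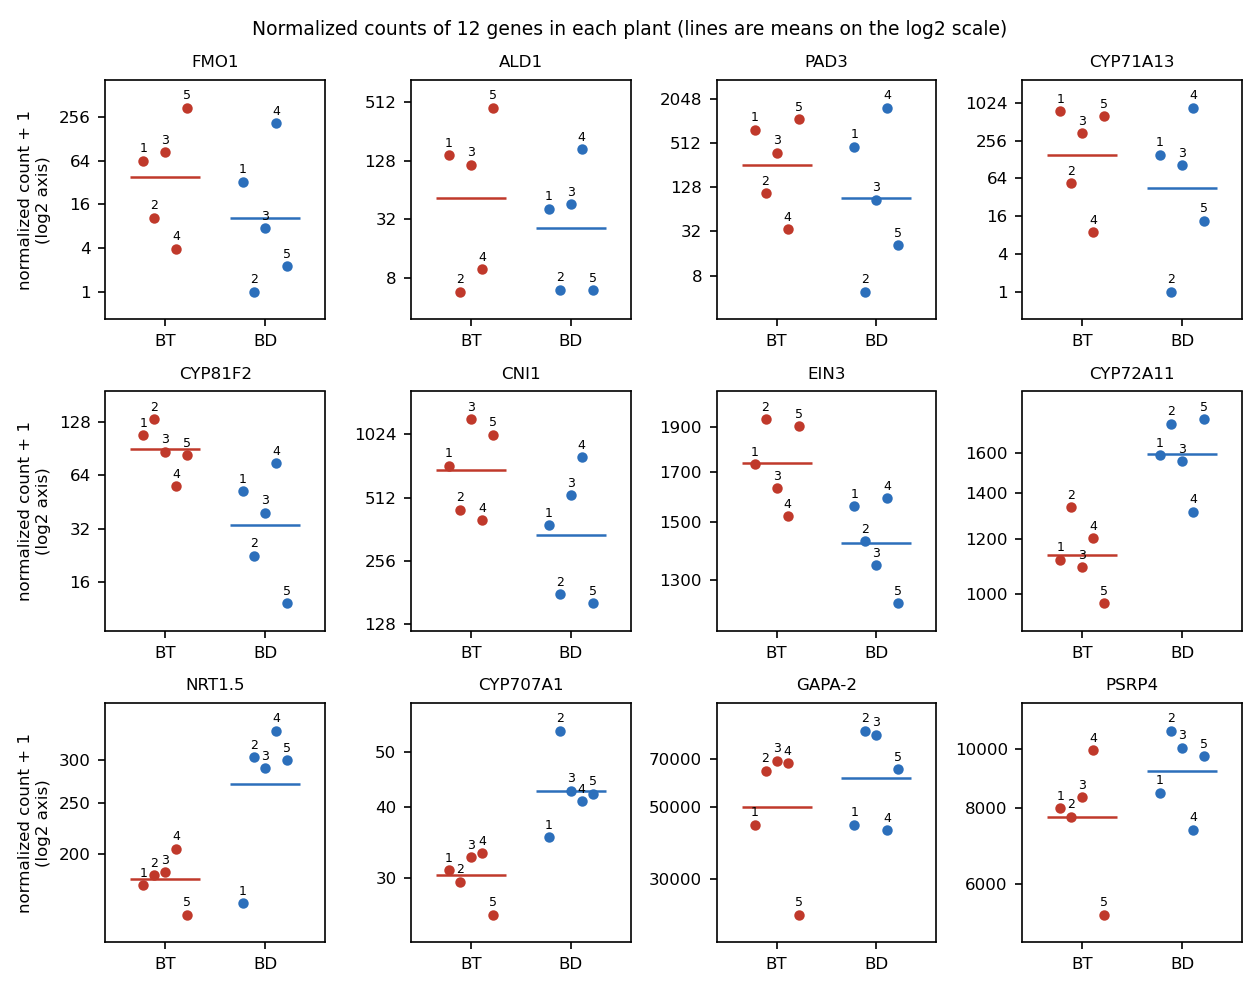
Normalized counts + 1 of 12 genes in each plant, on log2 axes that differ between panels, with lines at the means on the log2 scale. BT plants are red and left, BD plants blue and right, and numbers are plants. FMO1, ALD1, PAD3 and CYP71A13 spread more than 10-fold within each group, while CYP72A11 lay between 968 and 1333 in BT plants and between 1314 and 1789 in BD plants.

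Genes induced within minutes by touch, wounding or cold had a median of 0.23 over 37 members, with 25 above 0, and 0.23 over the 18 outside the regions. Their plant values were -0.24, -0.04, 0.81, -0.10 and 0.20 in BT plants, against -0.58, 0.40, 0.31, 0.18 and -0.61 in BD plants. BT plant 3 stood highest, and the lowest values were those of BD plants 1 and 5. Leaving out any 1 plant gave medians between 0.07, without BD plant 5, and 0.36, without BD plant 2. The median was 0.22 without BT plant 5 and BD plant 4, but 0.00 without the 4 plants that had a raised region. CNI1, a ubiquitin ligase of carbon and nitrogen balance, had 724, 447, 1207, 398 and 1017 normalized counts in BT plants, against 378, 177, 525, 795 and 159.9 in BD plants, a log2 fold change of 1.03 ± 0.49 and an unadjusted limma p of 0.052. DREB26, a transcription factor of the AP2 class, ran the other way at -0.91 ± 0.95, with 149 to 1138 in BT plants and 175 to 2967 in BD plants.

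WRKY53, a transcription factor listed under both senescence and rapid stress, had 855, 795, 1395, 354 and 1847 normalized counts in BT plants, against 549.8, 380.4, 851, 1573 and 132 in BD plants. Its log2 fold change was 0.81 ± 0.59, and it lies on chromosome 4. WRKY factors bind the W-box, searched here as TTGACC or TTGACT on both strands in the 250 bases before each annotated gene start. It was present in 15 of 37 promoters of the rapid stress list or 40.5%, in 6 of 29 of the salicylic acid list or 20.7%, and in 28.1% of the promoters of all 18677 genes searched. The windows of CNI1, PUB24 and DREB26, all of the rapid stress list, held no W-box. The promoter of WRKY53 is shown because it holds the W-box 2 times and the gene counts in 2 of the 4 highest lists. It was read from the RefSeq copy of the TAIR10.1 assembly at chr4:12393983-12394232, minus strand, with the W-boxes in capitals.
WRKY53: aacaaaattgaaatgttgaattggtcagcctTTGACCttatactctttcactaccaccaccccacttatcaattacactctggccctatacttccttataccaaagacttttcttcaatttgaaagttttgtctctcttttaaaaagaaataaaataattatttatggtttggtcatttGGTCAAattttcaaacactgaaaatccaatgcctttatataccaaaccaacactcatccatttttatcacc

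Abscisic acid and cold or drought genes had a median of 0.14 over 40 members and 0.05 over the 22 outside the regions, with 28 of the 40 above 0. The median was 0.03 with 22 of 40 above 0 without BT plant 5, 0.04 with 21 of 40 without BT plant 5 and BD plant 4, and -0.10 without the 4 plants with a raised region. The members called without adjustment were 1 higher and 1 lower in BT plants. CBF1, a regulator of cold tolerance, had 19, 44.8, 40.1, 16.6 and 42.1 normalized counts in BT plants, against 19.7, 8.91, 21.9, 14.6 and 9.99 in BD plants, and a log2 fold change of 1.03 ± 0.47. CYP707A1, which breaks down abscisic acid, had 30, 28.6, 31.7, 32.2 and 24.9 in BT plants, against 34.4, 53.4, 41.7, 39.9 and 41.2 in BD plants. All BT plants lay below all BD plants in CYP707A1, at a log2 fold change of -0.49 ± 0.22 and an unadjusted limma p of 0.041. Both genes lie on chromosome 4. DREB1A, the neighbour and close relative of CBF1, had a log2 fold change of 0.70 ± 0.35, and RD26, a NAC factor of drought, 0.46 ± 0.52. DREB1A and RD26 lie on chromosome 4 too. LTI78, a marker of cold and drought on chromosome 5, had 0.45 ± 0.54. RD20, a calcium-binding oil body protein, lies outside the regions and had -0.55 ± 0.69.

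Chaperones and lectins of the endoplasmic reticulum, which fold secreted proteins, had a median of 0.12 with 15 of 17 above 0, and 0.09 over the 12 outside. The plant values were 0.00, -0.53, 0.13, -0.38 and 1.08 in BT plants, against -0.21, -0.81, 0.06, 1.03 and -0.35 in BD plants. These 2 plants moved the list in opposite directions, to a median of -0.11 with 0 of 17 above 0 without BT plant 5 and of 0.41 with 16 of 17 above 0 without BD plant 4. With both left out the median was 0.17 with 15 of 17 above 0. BIP3, an inducible chaperone, had 180.1, 62.9, 248, 38.1 and 2147 normalized counts in BT plants, against 86.8, 12.7, 613, 854 and 23.7 in BD plants. CRT3, a calreticulin, had a log2 fold change of 0.33 ± 0.46, and CNX1, a calnexin, 0.24 ± 0.33. Hrd1A, a ligase that marks misfolded proteins, had -0.08 ± 0.11 and lay between 282 and 355 in BT plants and between 281 and 368 in BD plants.

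Protein turnover gave smaller and more even medians. The 26S proteasome, which degrades ubiquitin-tagged proteins, had 48 of 52 subunit genes above 0 at a median of only 0.10, and 0.07 over 29 outside the regions, with 25 above 0. Autophagy genes, which deliver cell parts to the vacuole, had 24 of 30 above 0 at a median of 0.09. For the proteasome the median was 0.01 without BT plant 5, 0.15 without BD plant 4, and 0.07 with 42 of 52 above 0 without both. For autophagy it was -0.00 without BT plant 5, 0.17 without BD plant 4, and 0.06 with 21 of 30 above 0 without both. Histone genes had a median of 0.08 with 33 of 41 above 0, which was 0.02 without BT plant 5, 0.15 without BD plant 4, and 0.09 with 32 of 41 above 0 without both. AT2G28720, a histone H2B gene, had 2696, 2526, 3345, 3147 and 2944 normalized counts in BT plants, against 2438, 2034, 2687, 2611 and 2466 in BD plants, a log2 fold change of 0.26 ± 0.11 and an unadjusted limma p of 0.036.

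**Figure D4:**
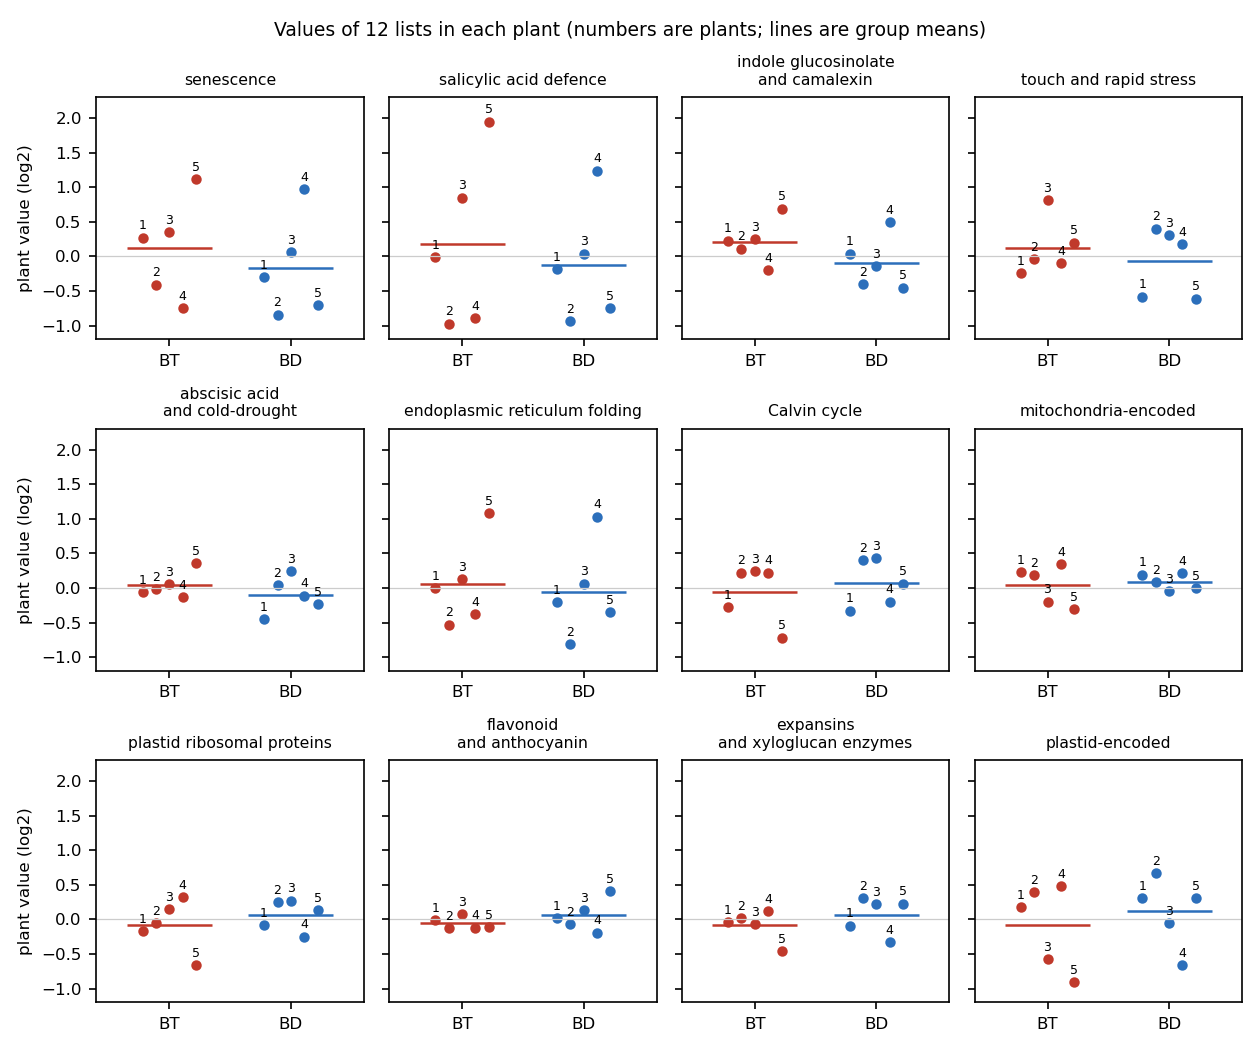
Values in each plant of the 6 lists with the highest and the 6 with the lowest median log2 fold change (log2, relative to the mean of the 10 plants), with lines at group means. BT plants are red and left, BD plants blue and right, and numbers are plants. The ranges overlapped in every panel, and BT plant 5 and BD plant 4 lay at the same end in senescence, salicylic acid defence, endoplasmic reticulum folding and the plastid-encoded genes.

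Genes of the chloroplast and of cell walls had the lowest medians. The genes encoded in the plastid genome itself had a median of -0.20, with 8 of 78 above 0. Most plastid transcripts lack a long poly(A) tail, so a library selected on that tail holds only part of them. The plant values were 0.18, 0.39, -0.57, 0.48 and -0.91 in BT plants, against 0.31, 0.67, -0.05, -0.66 and 0.31 in BD plants. BT plants 3 and 5 and BD plant 4 were the lowest. The median was -0.02 without BT plant 5, with 35 of 78 above 0, -0.39 without BD plant 4, and -0.20 with 11 of 78 above 0 without both. Without the 4 plants with a raised region it was 0.04. ATCG01280 and ATCG00860, 2 identifiers with the same values to 3 significant digits in all 10 plants, had 67, 81, 31.7, 102 and 22.7 normalized counts in BT plants, against 100, 111, 69.1, 36.1 and 77.4 in BD plants. They were therefore a single measurement.

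Mitochondria-encoded genes had a median of -0.13, with 9 of 26 above 0. Of 79 such genes listed, 26 had a mean of at least 10, and the 3 shown here, ATMG01190, ATMG00030 and ATMG01360, had log2 fold changes of -0.16 ± 0.24, -0.13 ± 0.19 and -0.05 ± 0.22. The median was -0.02 without BT plant 5, -0.01 without BT plant 5 and BD plant 4, and 0.29 without the 4 plants with a raised region.

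Nuclear genes for chloroplast proteins lay mostly below 0. Plastid ribosomal proteins had a median of -0.14, with 3 of 41 above 0, and -0.18 with 0 of 24 above 0 outside the regions. The photosystem and antenna genes, which harvest light, had a median of -0.10, with 3 of 44 above 0, and -0.13 with 1 of 32 outside. Calvin cycle genes, which fix carbon dioxide, had a median of -0.13, with 2 of 18 above 0, and chlorophyll synthesis genes -0.09, with 4 of 25. None of these 128 members had an unadjusted p under 0.05, where 0.793% of all genes with a mean of at least 10 were called lower and 0.49% higher.

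Not all of these lists kept their side of 0 when plants were left out. The photosystem list had plant values of -0.27, 0.36, 0.17, 0.29 and -0.88 in BT plants, against -0.40, 0.33, 0.48, -0.28 and 0.08 in BD plants. BT plant 1 and BD plants 1 and 4 were low as well, and the other 6 plants lay above 0. Without BT plant 5 the median was 0.11 with 38 of 44 above 0, without BD plant 4 it was -0.18 with 3 of 44 above 0, and without both 0.03 with 29 of 44. Leaving out BD plant 3 also moved it across 0, to 0.01. The Calvin cycle list gave 0.04 with 13 of 18 above 0 without BT plant 5, and -0.03 with 7 of 18 without both. The plastid ribosomal proteins gave 0.01 with 24 of 41 above 0 without BT plant 5, but -0.06 with 4 of 41 without both. Chlorophyll synthesis stayed below 0, at -0.02 with 9 of 25 above 0 without BT plant 5 and at -0.07 with 6 of 25 without both. The sum of the 5 leaf mesophyll markers was also lowest in BT plant 5, at 803434. Whether a smaller share of mesophyll RNA in that plant had a part in these lists was not tested.

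The single chloroplast genes named here are the extremes of the Calvin cycle and plastid ribosomal lists, not typical members. These lists had medians of -0.13 and -0.14. From each, the 3 genes furthest below 0 and the 1 furthest against the list are given, at a mean of at least 50. GAPA-2, a glyceraldehyde phosphate dehydrogenase of the Calvin cycle, had 44010.1, 64410.3, 69032, 67718 and 23351 normalized counts in BT plants, against 44043, 85275, 82963, 42395 and 64904 in BD plants, a log2 fold change of -0.29 ± 0.30. PSRP4, a plastid ribosomal protein, had 7997, 7744, 8335, 9966 and 5331 in BT plants, against 8485, 10742, 10074, 7370.1 and 9746 in BD plants, at -0.25 ± 0.15. In both, BT plant 5 was the lowest of the 10 plants and the other BT plants lay within the BD range. EMB3126 and RPL21C, which are plastid ribosomal proteins too, had -0.25 ± 0.16 and -0.22 ± 0.18, SBPASE, the sedoheptulose bisphosphatase, -0.22 ± 0.24, and TIM, the plastid triose phosphate isomerase, -0.18 ± 0.16. PSRP3/2 and RPE, the ribulose phosphate epimerase, both had 0.02, with an SE of 0.13 for PSRP3/2 and 0.14 for RPE, and both lie on chromosome 5.

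Expansins and xyloglucan enzymes, which loosen cell walls during growth, had a median of -0.17 with 10 of 38 above 0, and -0.24 with 2 of 23 above 0 outside the regions. EXLA1, an expansin-like protein, had 232, 501, 653, 1102 and 365 normalized counts in BT plants, against 209, 3164, 2035, 525 and 782 in BD plants, a log2 fold change of -0.83 ± 0.74. BD plants 2 and 3 were the highest of all, and the other 3 BD plants lay between 209 and 782. XTH31 and XTH30, enzymes that cut and join xyloglucan, had -0.42 ± 0.62 and -0.37 ± 0.37, and EXPA8, an expansin, ran against the list at 0.23 ± 0.40. The median was -0.05 without BT plant 5, -0.29 without BD plant 4 and -0.09 without both.

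Flavonoid and anthocyanin genes, which make pigments and sunscreens, had a median of -0.15, with 4 of 29 above 0. Leaving out any 1 plant gave medians between -0.24, without BD plant 4, and -0.06, without BD plant 5, and leaving out BT plant 5 and BD plant 4 together gave -0.18 with 6 of 29 above 0. Its plant values were -0.01, -0.13, 0.08, -0.12 and -0.11 in BT plants, against 0.02, -0.07, 0.13, -0.19 and 0.41 in BD plants, so BD plant 5 stood highest and the other plants overlapped. DFR, the reductase at the entry to anthocyanins, had 317, 277, 509, 291 and 599 normalized counts in BT plants, against 376, 483, 649.7, 434 and 716 in BD plants, a log2 fold change of -0.45 ± 0.22 and an unadjusted limma p of 0.065. UF3GT, a glycosyltransferase of anthocyanins, had -0.39 ± 0.29, and scpl10, an acyltransferase of the same pathway, -0.39 ± 0.23. MYBL2, a repressor of these genes, ran the other way at 0.49 ± 0.23 with an unadjusted limma p of 0.053, and had 2681, 3998, 3413, 2772 and 2945 in BT plants, against 1934, 2699, 3422, 1678 and 1809.9 in BD plants. MYBL2 lies on distal chromosome 1, where BD plant 4 with its raised region had the lowest MYBL2 value of all.

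**Figure D5:**
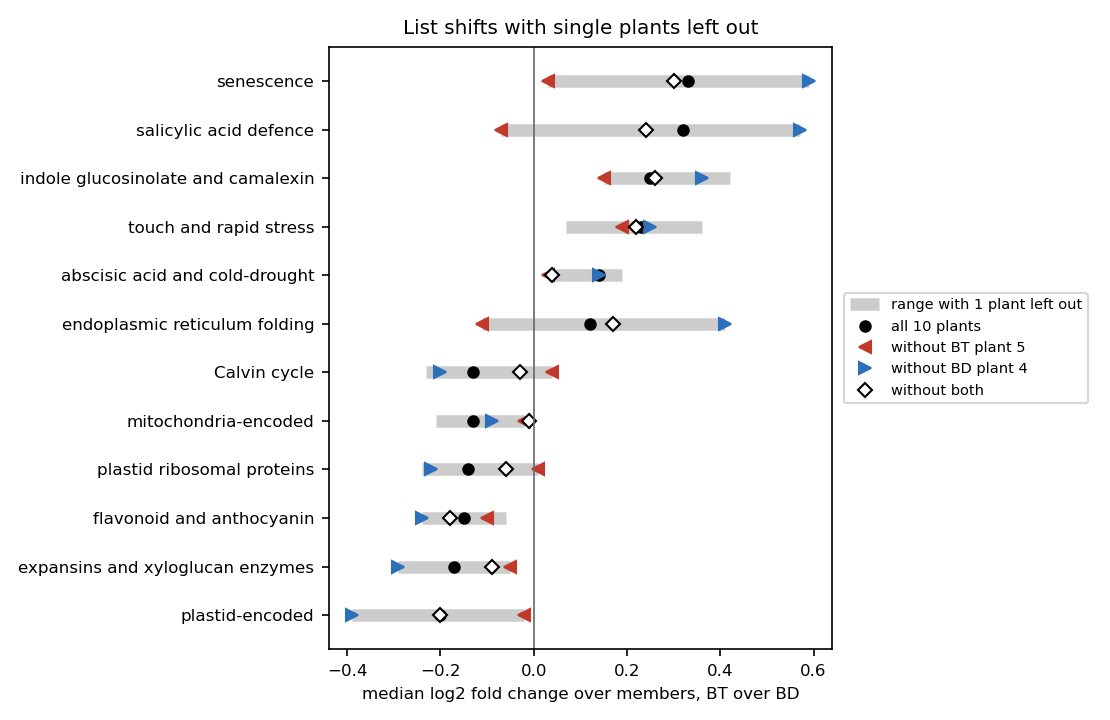
Median log2 fold change, BT over BD, of the 6 highest and 6 lowest lists with all 10 plants (black), without BT plant 5 (red), without BD plant 4 (blue), without both (open), and the range when any 1 of the 10 plants was left out (grey). Leaving out BT plant 5 moved salicylic acid defence to -0.07 and endoplasmic reticulum folding to -0.11, while senescence, indole glucosinolates and camalexin, touch and rapid stress, flavonoids and expansins kept their sign.

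The size of a shift and its spread between plants gave different orders of lists. Only 3 lists differed between groups by more than 1 pooled SD of the plant values, and none of these was among the 4 with the highest medians. The ratio was 1.18 for the circadian clock, 1.16 for ethylene and 1.05 for flowering time. For flowering time the 2 measures disagreed. The group mean of the plant values was 0.08 higher in BT plants, but the median log2 fold change was -0.01 with 16 of 32 members above 0. Clock genes had a median log2 fold change of 0.08 with 26 of 35 above 0, and plant values of -0.02, 0.21, 0.10, -0.07 and 0.19 in BT plants, against -0.13, -0.05, 0.05, 0.02 and -0.07 in BD plants. BT plants 2, 3 and 5 lay above every BD plant, and BT plants 1 and 4 did not. With members outside the regions only, none of the 42 lists reached 1 pooled SD, and the ratio was 0.46 for the clock, 0.59 for ethylene and 0.40 for flowering time. The clock median was 0.05 without BT plant 5 and BD plant 4, and -0.01 without the 4 plants with a raised region. The evening element, searched as AAATATCT, was found in 10 of 35 clock promoters or 28.6%, against 5.09% of all promoters searched.

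Ethylene genes were of interest because the mothers carried ein3-1. The mother's alleles were a smaller share of the genome in BT plants, which cannot be told apart from ploidy here. Their median was 0.12 with 17 of 28 above 0, 0.13 without BT plant 5 and BD plant 4, and -0.00 with 9 of 19 above 0 outside the regions. EIN3 itself had 1733, 1939, 1633, 1523 and 1906 normalized counts in BT plants, against 1560, 1430.1, 1348, 1592 and 1225 in BD plants, a log2 fold change of 0.29 ± 0.10, an unadjusted limma p of 0.012 and an adjusted p of 1. BT plant 4 lay below BD plants 1 and 4, and the other BT plants lay above all BD plants. The counts add up transcripts of all alleles, so they do not check the genotype. HLS1, a regulator of the apical hook that ethylene induces, had a log2 fold change of 0.61 ± 0.28 with an unadjusted limma p of 0.044, and lies on chromosome 4.

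Lists tied directly to genome dose and the cell cycle had small medians. DNA replication had -0.02 with 11 of 27 above 0, and 0.09 with 19 of 27 above 0 without BT plant 5 and BD plant 4. Regulators of endoreduplication, the copying of DNA without division, had -0.03 with 11 of 24, and the DNA damage response -0.02 with 12 of 29. None of their members had an unadjusted p under 0.05, where all genes gave 0.49% higher and 0.793% lower. Mitotic cell cycle genes had -0.10 with 6 of 31 above 0, and -0.08 without BT plant 5 and BD plant 4. Cytosolic ribosomal proteins had a median of -0.01 with 89 of 209 above 0, over plant values of -0.43 to 0.36 in BT plants and -0.14 to 0.18 in BD plants. DNA methylation and silencing had -0.05 with 15 of 39 above 0, and Polycomb genes 0.01 with 10 of 18. Outside the regions, 39.8% of all genes lay above 0. The counts there were 27 of 136 for cytosolic ribosomal proteins, 6 of 26 for DNA methylation and 4 of 18 for the mitotic cell cycle. They were 5 of 16 for DNA replication, 3 of 8 for Polycomb, 7 of 17 for the damage response and 7 of 13 for endoreduplication.

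Members of the other lists reached an unadjusted p under 0.05 one at a time rather than as groups. The gene with the smallest p of all 21450 was CYP72A11, a cytochrome P450 of a tandem family. It had 1119, 1333, 1091, 1204 and 968 normalized counts in BT plants, against 1588, 1763, 1555, 1314 and 1789 in BD plants, a log2 fold change of -0.49 ± 0.10, an unadjusted limma p of 0.00022 and an adjusted p of 1. BT plant 2 lay just above BD plant 4, and all other BT plants lay below every BD plant. Of the 7 CYP72A genes 5 lay above 0, and their median was 0.03. Reads shared between such near-identical copies could be split between them by the counting.

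NRT1.5, which loads nitrate into the xylem, had 174, 182, 184, 204 and 153 normalized counts in BT plants, against 161, 303, 289, 340.3 and 299 in BD plants, a log2 fold change of -0.59 ± 0.18 and an unadjusted limma p of 0.0052. BD plant 1 lay among the BT plants and the other BD plants above all of them. The 34 nitrate genes had a median of -0.06. CER1, which makes wax alkanes, had -0.60 ± 0.25 within a wax list at -0.09, and RDM1, a component of RNA-directed DNA methylation, -0.24 ± 0.10. AGL24, a promoter of flowering, had -0.57 ± 0.25 within a list at -0.01.

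On the higher side, ST2A, which sulfonates a jasmonate derivative, had 55, 32.4, 28, 8.78 and 84.3 normalized counts in BT plants, against 8.19, 20.4, 13.2, 14.6 and 7.49 in BD plants. Its log2 fold change of 1.39 ± 0.48, with an unadjusted limma p of 0.011, went against its list, since jasmonate genes had a median of -0.10 with 10 of 33 above 0. CKX4, which degrades cytokinin, had 0.56 ± 0.21, RING1B, a Polycomb protein, 0.54 ± 0.20, FRO4, a metal reductase, 0.70 ± 0.32, and FMA, the regulator that commits guard cells, 0.25 ± 0.11. The 7 guard cell markers had a median of 0.13 with summed counts of 1317 to 2319.7 in BT plants and 1504 to 1847 in BD plants.

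Families defined by symbol alone overlapped between the groups as well. The glutathione transferases of the GSTF class had the highest median at 0.29 with 8 of 10 above 0, the cysteine-rich receptor kinases CRK had 0.21 with 28 of 35 above 0, and WRKY factors 0.16 with 35 of 46 above 0. Of the 35 CRK genes only 2 lay outside the regions, where their median was -0.08, while GSTF and WRKY had 0.29 and 0.22 outside. Leaving out BT plant 5 gave 0.19 for GSTF, 0.08 for CRK and 0.03 for WRKY, leaving out BD plant 4 gave 0.40, 0.41 and 0.29 in the same order, and leaving out both gave 0.35, 0.25 and 0.17. With a single plant left out, GSTF was lowest without BD plant 2, at 0.08, and CRK without BD plant 5, at 0.03. Without the 4 plants that had a raised region the medians were 0.31 for GSTF, -0.04 for CRK and 0.02 for WRKY. GSTF2 had 9386, 3681, 4519.7, 2868 and 16187 normalized counts in BT plants, against 6444, 682, 2098, 11817 and 1495 in BD plants, with BT plant 5 and BD plant 4 the highest of each group. GSTF7 had a log2 fold change of 0.96 ± 0.70, WRKY75 1.66 ± 1.41, WRKY30 0.87 ± 0.83, CRK24 0.55 ± 0.50 and CRK23 0.51 ± 0.89.

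The fasciclin-like arabinogalactan proteins FLA, which sit at the cell surface, had the lowest median at -0.22 with 1 of 13 above 0, followed by the beta-glucosidases BGLU at -0.18 with 8 of 21 and the expansins EXPA at -0.17 with 4 of 13. Leaving out BT plant 5 gave -0.07 for FLA, -0.07 for BGLU and -0.03 for EXPA, and leaving out BD plant 4 as well gave -0.17, -0.08 and -0.06 in the same order. Without the 4 plants that had a raised region the medians were -0.12, -0.05 and 0.04. FLA13 had 1226, 2102, 1579, 2364 and 946 normalized counts in BT plants, against 1383, 3925, 2633, 1313 and 2669 in BD plants. FLA9 had a log2 fold change of -0.46 ± 0.44, BGLU46 -0.46 ± 0.49, BGLU11 -0.38 ± 0.77, EXPA10 -0.35 ± 0.24 and EXPA11 -0.32 ± 0.34. In all 6 families the plant values of the groups overlapped, and none of the 12 family members named here had an unadjusted p under 0.05.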

How the data were processed

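Single-read poly(A) libraries of 15 plants, each with 4 technical replicates, were processed by the authors. Per the labels' processing notes, reads were trimmed with Trimmomatic 0.38, aligned to TAIR10 with STAR 2.6.0c, quantified with Salmon 0.11.3 and handled with DESeq2 1.22. The deposited tables hold 1 column a plant of size-factor normalized counts (a signal of reads per gene divided by the plant's factor), of TPM values and of rlog values, which the authors put on a log2 scale. The library kit did not mark strand, so overlapping antisense genes cannot be told apart. No column of the authors' own comparisons was used.

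The normalized counts were whole multiples of 1 step in each plant. Values came out whole within 0.001 of a read for 100% of genes, which gave the depths. For BT plant 1 the step is too close to 1 for the automatic check of recovered reads, so edgeR 4.0.16 and DESeq2 1.42.0 were run on the recovered reads of the other 14 plants.

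The test was limma 3.58.1 (lmFit, eBayes with trend) on log2(normalized count + 1) in all 15 plants, with Benjamini-Yekutieli adjustment over 21450 genes. It was tested on simulated data. Fold changes are on that log2 scale, which understates those of low genes. Members of lists and families counted where their mean over the 15 plants was at least 10. Where several lists hold a gene, it counts in each. List members were matched by RefSeq symbol, synonym or identifier. Plants are the replicates, and whether they shared mothers is not given in the sources used here. Promoter windows came from the RefSeq TAIR10.1 assembly.

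The lists, the regions left out and the rules were chosen with earlier results of these data known. Named genes were the 3 members with the largest log2 fold change in the direction of the list and the 1 furthest against it, at a mean of at least 50, in the 6 highest and 6 lowest lists. Members with an unadjusted p under 0.05 in any list, 2 members in the 3 highest and 3 lowest families, and EIN3 were added. Alternatives were other scales (TPM, rlog), pseudocounts of 0.5 and 5, filters, quantile normalization, other tests, a replicate block, array weights and leaving out plants or regions. Leaving out BT plant 5 together with BD plant 4, and the count tests in 14 plants, were chosen after seeing the data.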

Additional observations from a re-analysis of the deposited data

Results flagged for a closer look

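Of 84 groups of 5 plant values, 2 groups for each of the 42 lists, 6 held a plant far from the other 4 of its group, where about 1 group in 20 is flagged by chance. BT plant 5 had 0.36 on the 26S proteasome list, where the other BT plants lay at -0.11 to 0.02, and BD plant 4 had 0.16 on the same list, against -0.15 to -0.07 in the other BD plants. BT plant 5 had 0.42 on the autophagy list, against -0.13 to 0.02 in the other BT plants. BT plant 3 had 0.21 on the heat shock list, where the other BT plants lay at -0.04 to 0.03, and BD plant 4 had 0.36 there, against -0.22 to -0.06 in the other BD plants. On the wax and lipid transfer list BD plant 4 lay lowest at -0.40, against 0.06 to 0.25 in the other BD plants. All 3 plants named here were those with a raised distal chromosome 1, and whether that region had a part in these values was not tested.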

How the results depend on the processing

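In 25 alternatives to the limma fit, edgeR and DESeq2 included, 0 genes passed the adjusted threshold. The unadjusted counts of 166 higher and 205 lower genes became 72 higher without the 3 regions, 90 higher among genes with a mean of at least 10, and 308 higher and 335 lower with array weights. Leaving out 1 plant gave 104 to 568 higher genes and 122 to 455 lower genes, with the lowest counts without BD plant 2 and the highest without BD plant 4. Other counts beyond 1.5 times the full one were 314 higher genes without BT plant 4 and 127 lower genes without BD plant 5. The 16 genes with all BT plants above all BD plants became 7 without the regions, 6 with the filter and 9 with quantile normalization, and 26 to 77 when plants were left out, and the 24 genes below became 39 to 98, since fewer plants overlap less. Without BT plant 5 and BD plant 4 the counts were 133 above and 149 below, and 1 list, heat shock, did not overlap. Without the 4 plants with a raised region, which left 2 BT and 4 BD plants, they were 743 above and 705 below, and 4 lists did not overlap, the 26S proteasome, histones, heat shock and iron deficiency.

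Of the 42 lists, 8 kept their sign in every alternative. They were senescence, indole glucosinolates and camalexin, touch and rapid stress, 26S proteasome, histones, chlorophyll synthesis, flavonoids and expansins. Of 840 alternative list medians, 835 lay within 1 pooled SD of the plant values from the full median. That SD was larger than the difference between group means in 39 lists, so it is a loose limit. A median could change sign within it, as salicylic acid defence did at -0.07 without BT plant 5. The medians that moved further were ethylene at -0.00 without the regions and, without the 4 plants with a raised region, abscisic acid at -0.10, CYP72A at -0.13, DNA replication at 0.17, mitochondria-encoded genes at 0.29 and the BGLU family at -0.05. The 8 lists were found on unrounded medians, while the next counts used rounded ones, where 0.00 has no sign. On these, leaving out BT plant 5 turned the sign of 12 lists and leaving out BD plant 4 that of 5. The cause was not tested.

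With the replicate number as a block, 0 genes passed, and 173 higher and 199 lower genes had an unadjusted p under 0.05. The deviations of same-numbered BT and BD plants correlated at 0.45, 0.41, 0.39, -0.67 and -0.49 for numbers 1 to 5. BT plants 1, 2 and 3 correlated best with the BD plant of their own number. BT plant 4 correlated best with BD plant 5, at 0.55, and BT plant 5 with BD plant 4, at 0.66. The numbers thus matched some plants but not all, and whether they mark a shared batch was not tested. edgeR and DESeq2 were not run on all 15 plants, because the step of BT plant 1 was not accepted as recovered reads. Lists chosen with results known, 5 plants a group and a within-group spread above most list shifts limit what differences could be seen.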
